A study of Arabidopsis thaliana with 12 samples.

Results

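The genes described here are those of the plastid chromosome of Arabidopsis thaliana that encode the photosynthetic machinery. They were taken by symbol: the photosystem I (psa), photosystem II (psb), cytochrome b6f (pet), NDH complex (ndhA to ndhK) and ATP synthase (atp) genes, with rbcL, ccsA, cemA, ycf3 and ycf4. The rule found 47 probe sets for 47 genes among the 13513 probe sets of the array that the annotation pairs with a single gene, and all 47 genes lay on the plastid chromosome in the gene table. ndhB was not among them, since its probe set listed several genes.

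The plastid is a former cyanobacterium that has kept a small chromosome. Its photosynthesis genes stand mostly in runs transcribed together by a bacterial-type polymerase, and by a second, phage-type polymerase coded in the nucleus, and the long transcripts are then cut and edited by nuclear-encoded proteins. Each photosynthetic complex also needs subunits made in the nucleus. Young anthers are green, with chloroplasts in the outer wall layers, whereas pollen and tapetum carry plastids with little or no thylakoid membrane.

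Gene expression was measured on 12 Affymetrix ATH1 arrays, each hybridised with RNA from anthers that were collected together with their filaments. The ms35 line, labelled as a gene knock-out in the Ler-0 background, is affected in MYB26, a regulator of secondary wall thickening in the anther endothecium. The control was a wild type, named Glabra in the source label and Ler in the titles, so its exact background was not settled. Each line was sampled at 3 labelled stages, PMI (pollen mitosis I), bicellular and PMII (pollen mitosis II), with 2 arrays for each of the 6 groups. All plants grew under 22 h of light and 2 h of night at 22 °C. The labels do not say whether the 2 arrays of a group are from separate plants, and p-values cover only the spread between these arrays, which may be technical. MYB26 had no named probe set, so the mutation itself could not be checked here.

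Values are MAS5 signals on a linear scale, which have the same trimmed mean in every array and array medians between 37.3 and 45.3. RNA integrity was read from the 3′ to 5′ signal ratio of the GAPDH control probes (1.29 at its lowest). The 2 highest ratios were 2.86 in replicate 2 of wild type PMII and 2.37 in replicate 2 of ms35 bicellular. Next came 2.11 in replicate 2 of ms35 PMI, and the other arrays reached at most 1.82. Replicate arrays correlated at r = 0.962 to 0.987 over the members and at 0.899 to 0.937 over all 16464 tested probe sets, and none of the 66 pairs of arrays had identical columns. The number of arrays limits the precision of every value. Changes are differences in log2(signal + 2.23) ± SE from limma, and a gene is called where its Benjamini-Hochberg adjusted p over the 16464 tested probe sets was under 0.05.

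Stage names are used as labelled, but marker genes followed the reverse of the order in which the stages are known to occur. The 13 late pollen markers summed to 4021 to 4270 at labelled PMI and to 548 to 846 at labelled PMII in the wild type, and to 2717 to 3047 and 589 to 895 in ms35. The 5 tapetum markers, whose tissue degenerates as pollen matures, went from 38.6 to 66.5 at PMI up to 4482 to 5208 at PMII in the wild type, and from 82.6 to 112 up to 4242 to 7810 in ms35. The 3 green tissue markers rose with the tapetum markers, from 1172 to 1435 up to 3811 to 3835 in the wild type and from 1129 to 1568 up to 3637 to 4323 in ms35. At the bicellular stage the sums lay in between: in the wild type 957 to 1318 for late pollen, 1798 to 2601 for tapetum and 1938 to 2136 for green tissue, and in ms35 1187 to 2163, 738 to 1941 and 1857 to 3433. From PMI to PMII, 11 of 13 late pollen markers were called lower in the wild type and 9 in ms35. Over all 16464 tested probe sets, 1967 and 1584 were called lower. All 13 late pollen markers had negative values in the wild type and 12 in ms35. All 4 tested tapetum markers were called higher in the wild type and 3 in ms35, and all 3 green tissue markers in both. Over all tested probe sets 17.0% and 11.7% were called higher. No marker was listed at 0, and the lowest signal was 0.553, for the pollen gene ANX2. In anthers of mixed tissue, fewer cells of a type and less RNA per cell cannot be told apart, and this holds for every stage comparison that follows.

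Signals of most members were well above the low end of the arrays in every group. Of the 47 genes, 46 exceeded the limit for testing (a signal above 25.5 in at least 2 arrays), and 40 exceeded it in all 12 arrays. The gene left out was ndhF, an NDH membrane subunit, with signals of 0.444 to 11.4 over the 12 arrays. Among tested genes, atpI exceeded the limit in 2 arrays, ndhH in 4, petD in 7, petN in 8, and petG and psbN in 11 each. Signals of different probe sets are not comparable as levels, so each gene is compared only with itself. Spread between replicates differed widely between the 46 tested genes: the residual SD on the log2 scale was 0.116 for cemA, 0.135 for ccsA and 0.136 for atpB at the low end, and 0.975 for petN, 0.797 for petL and 0.679 for psaJ at the high end.

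**Figure D1:**
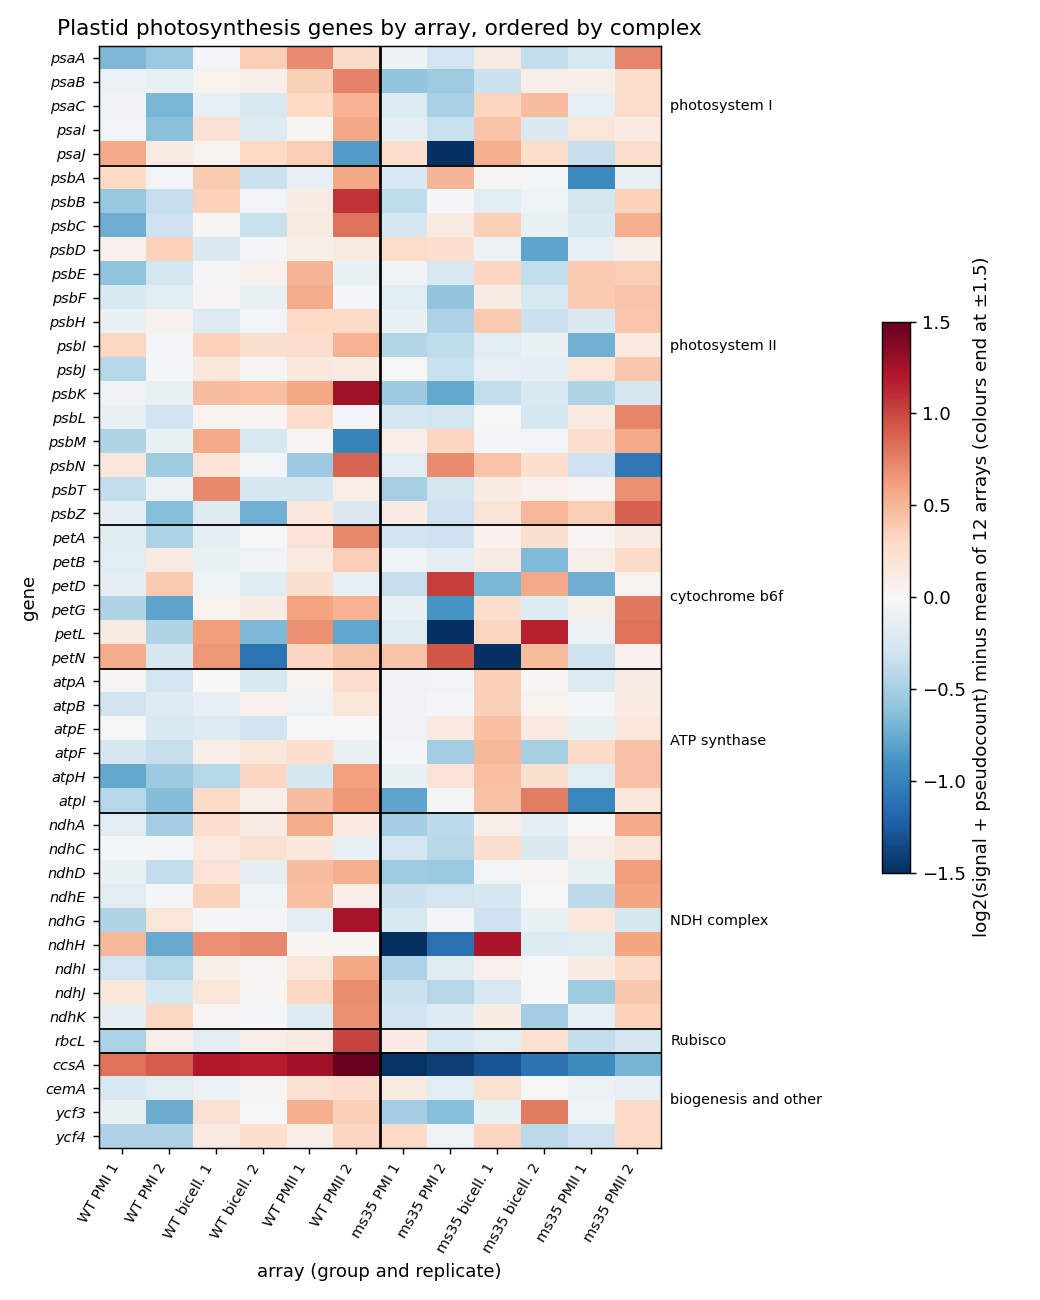
Each row is 1 of the 46 tested plastid photosynthesis genes, grouped by complex, and each column is 1 of the 12 arrays. Colour gives log2(signal + pseudocount) minus the gene's mean over the arrays (scale ends at ±1.5), and the row of ccsA splits by line where most rows do not.

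The first comparison set ms35 anthers against wild type anthers. Most plastid photosynthesis genes did not pass the test, and the clearest difference was in ccsA. This gene, which encodes a protein of the plastid pathway that attaches haem to c-type cytochromes, was 4.98-fold lower in ms35. Averaged over the 3 stages, ccsA, psbK and psbI were lower in ms35 and no member was higher, so 3 of 46 were called, where 5.27% of all tested probe sets were called in either direction and 3.03% were called lower. The share of members is near that background. The members' median difference was −0.05, against 0.02 over all tested probe sets, with 15 members positive and 31 negative.

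ccsA gave signals of 866 and 923 in wild type PMI, 1126 and 1111 in wild type bicellular, and 1175 and 1476 in wild type PMII. In ms35 the same probe set gave 175 and 183 at PMI, 198 and 226 at bicellular, and 253 and 300 at PMII. Every ms35 array lay far below every wild type array, and within each line the labelled stages kept the same order. The difference was −2.32 ± 0.10 averaged over stages (adjusted p = 1.30e-07). By stage it was −2.31 ± 0.18 at PMI (adjusted p = 8.01e-05), −2.39 ± 0.18 at bicellular (adjusted p = 2.06e-05) and −2.25 ± 0.18 at PMII (adjusted p = 8.68e-05). It stayed called, averaged and at each stage, under each of the 22 alternative settings, and a test of whether it varied between stages gave an adjusted p of 0.964.

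The genes on either side of ccsA on the plastid chromosome were not called. On one side, rpl32, for a ribosomal protein, gave 676 to 1274 in the wild type and 745 to 1328 in ms35, a difference of −0.07 (adjusted p = 0.866). On the other side, ndhD, for a proton-pumping membrane subunit of the NDH complex, gave 1156 and 956, then 1424 and 1122, then 1712 and 1789 in the wild type from PMI through bicellular to PMII. Its ms35 signals were 854 and 844, then 1204 and 1271, then 1144 and 1911, and the difference between lines was −0.19 ± 0.14 (adjusted p = 0.510). The lines overlapped for both neighbours.

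**Figure D2:**
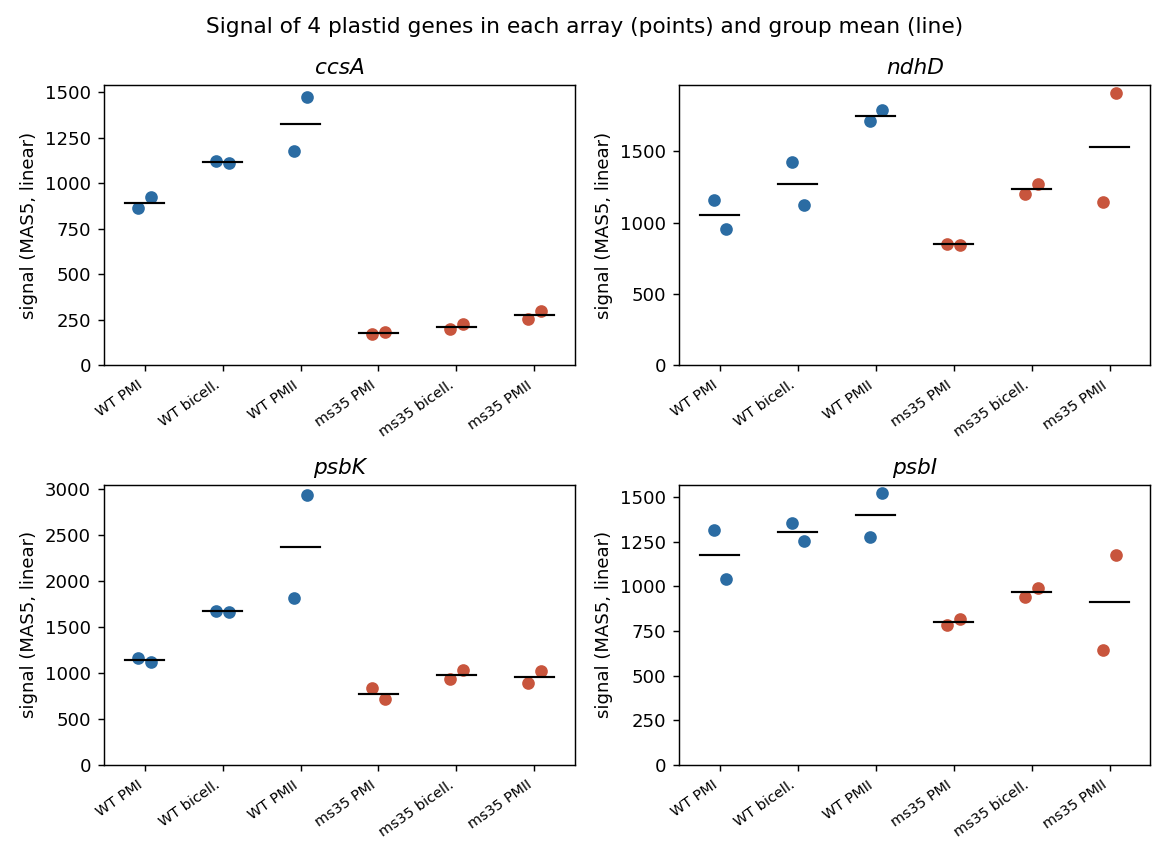
Points are the linear MAS5 signals of ccsA, ndhD, psbK and psbI in each array and short lines are group means, with wild type and ms35 groups side by side. ccsA separates fully by line (866 and above against 300 and below), its neighbour ndhD overlaps, and psbK and psbI are lower in ms35 by a smaller margin.

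psbK and psbI encode small membrane subunits of photosystem II and are neighbours in gene order. psbK gave 1167 and 1121 at PMI, 1677 and 1664 at bicellular and 1813 and 2937 at PMII in the wild type. In ms35 it gave 834 and 714, 937 and 1033, and 889 and 1019 at those stages, below the wild type at each one. Averaged over stages psbK was 1.82-fold lower in ms35 (−0.87 ± 0.13, adjusted p = 0.00167), and it stayed called in that comparison under each of the 22 settings.

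psbI gave 1315 and 1042, 1353 and 1256, and 1279 and 1525 in the wild type, and 784 and 818, 942 and 993, and 643 and 1178 in ms35. The groups did not overlap at any stage, though the higher ms35 PMII array reached the range of wild type PMI. The difference was 1.47-fold (−0.55 ± 0.15, adjusted p = 0.0491) and sat at the threshold: leaving out any single array other than ms35 PMII replicate 2 ended the call (adjusted p = 0.0648 to 0.127). The flanking genes were not called, with −0.30 (adjusted p = 0.498) for rps16, a ribosomal protein gene, and 0.06 (adjusted p = 0.859) for atpA, the alpha subunit of ATP synthase.

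Both ms35 arrays lay below both wild type arrays at each of the 3 stages for 3 of the 46 members, which were ccsA, psbI and psbK. Over all tested probe sets 2.99% did so. No member lay above the wild type in this way, against 2.86% of all tested probe sets.

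Separately by stage, ccsA alone was called at PMI and at bicellular, where 2.03% and 1.77% of all tested probe sets were called (1.03% and 1.37% lower). At PMII, ccsA and psbK were called (psbK 2.42-fold lower, −1.28 ± 0.22, adjusted p = 0.0199), against 0.948% of all (0.516% lower). The psbK call at PMII ended without wild type PMII replicate 2 (adjusted p = 0.153), whose signal of 2937 was the highest of the gene and whose GAPDH ratio was the highest of the arrays, and also without either ms35 PMII array (adjusted p = 0.115 without replicate 1 and 0.0640 without replicate 2). None of the 46 members passed the limma F test for a genotype difference that varied with stage, where 0.194% of all tested probe sets passed, and none reached an unadjusted p under 0.05.

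The remaining members, by complex, gave smaller or less certain differences. In photosystem I, psaB, for a reaction centre protein, gave −0.34 ± 0.12 (adjusted p = 0.155), and psaA, its partner, gave −0.04 ± 0.17 (adjusted p = 0.943). In photosystem II, psbZ, for a small subunit and chosen for mention after its values were seen, was nearest to a call in the other direction, with 0.58 ± 0.16 (adjusted p = 0.0507). Its signals were 407, 290, 397, 273, 506 and 390 in the wild type and 489, 364, 519, 641, 585 and 836 in ms35, in order of labelled stage and replicate, and the lines overlapped at PMI only. It passed under 6 of the alternatives, at adjusted p between 0.0388 and 0.0479.

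The reaction centre genes of photosystem II did not pass either. psbA, for the rapidly replaced D1 protein, gave 487 to 907 in the wild type and 313 to 864 in ms35 (−0.26 ± 0.20, adjusted p = 0.558). psbD, for its partner D2, gave 71.4 to 107 and 47.5 to 102 (−0.13 ± 0.15, adjusted p = 0.725). rbcL, for the large subunit of the carbon-fixing enzyme Rubisco, gave 83.5 to 238 and 90.2 to 137 (−0.23 ± 0.18, adjusted p = 0.562). The lines overlapped for each of these genes.

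All 9 tested NDH genes had negative averaged values, from −0.40 to −0.05 with a median of −0.22, but none was called. ATP synthase genes had positive values in 5 of 6, again with none called: atpB, for the catalytic beta subunit, gave 4582 to 6401 in the wild type and 5408 to 7206 in ms35 (0.14 ± 0.13, adjusted p = 0.651). petB, for the cytochrome b6 subunit, gave 2579 to 3707 and 1815 to 3522 (−0.11 ± 0.15, adjusted p = 0.754). Besides ccsA, none of the other assembly and envelope genes was called: cemA, for an envelope membrane protein, and ycf3 and ycf4, for photosystem I assembly proteins, had averaged values between −0.09 and 0.05.

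The plastid genes outside photosynthesis gave 2 further calls among 21 tested (9.52%), where 5.27% of all tested probe sets were called in either direction. rpl14, for a ribosomal protein, was lower in ms35 (−1.79 ± 0.18, adjusted p = 0.000113), with 307 to 785 in the wild type and 70.7 to 207 in ms35. Its neighbours in gene order were not called, with −0.17 for rpl36 (adjusted p = 0.632) and −0.40 for rpl16 (adjusted p = 0.118). rps4, another ribosomal protein gene, was higher in ms35 (0.83 ± 0.16, adjusted p = 0.00831), with 1770 to 4412 in the wild type and 3293 to 5200 in ms35.

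Each plastid gene was read by a single probe set. A difference in transcript level and a difference between the lines in the probed sequence therefore cannot be told apart, nor can the effect of ms35 and that of another line background. As background, plastids in Arabidopsis are inherited through the mother, so a plastid chromosome stays with the maternal line through crosses.

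**Figure D3:**
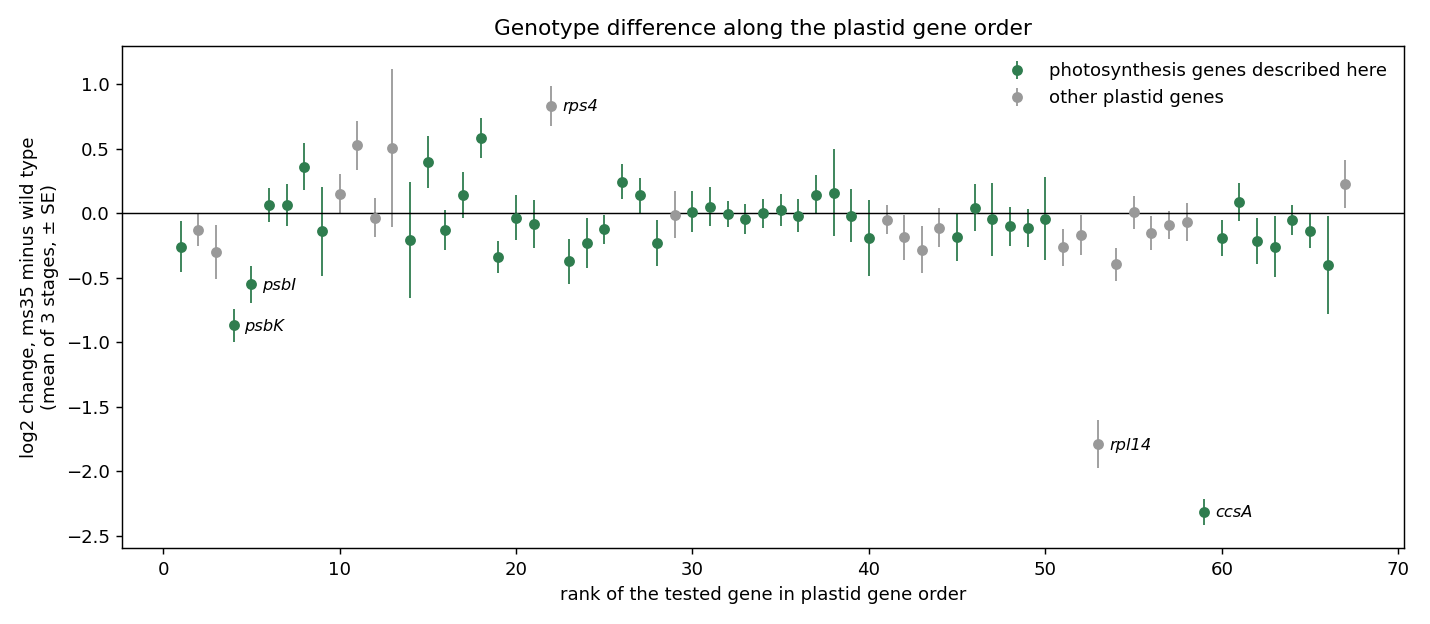
Points are the 67 tested plastid genes in gene order along the chromosome (x axis, rank) with their log2 difference ms35 minus wild type averaged over stages (y axis, bars ± SE). Members and other plastid genes have separate colours. ccsA at −2.32 and rpl14 at −1.79 lie farthest below 0, with neighbours between −0.40 and −0.07.

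The second comparison set the labelled stages against each other. Between PMI and PMII, signals of plastid photosynthesis genes were mostly higher at PMII, by modest amounts, in both lines. In the wild type 12 of 46 members were called higher and none lower. Of all tested probe sets, 29.0% were called in either direction and 17.0% were called higher. In ms35 6 of 46 were called higher and none lower, against 21.3% and 11.7%. The shares of members called are near these backgrounds. The members' median change was 0.41 in the wild type and 0.38 in ms35, against 0.19 and 0.09 over all tested probe sets. Both PMII arrays lay above both PMI arrays for 30 members in the wild type (40.1% of all tested probe sets did so), for 24 in ms35 (35.1%) and for 18 in both lines (25.6%).

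In the wild type the summed signal of the 47 members was 38262 to 40036 at PMI, 42331 to 45521 at bicellular and 48377 to 50536 at PMII. These sums did not overlap between stages. In ms35 the sums were 37879 to 39085, 42214 to 48715 and 41351 to 50965, and bicellular and PMII overlapped. Probe sets of high signal, such as atpB and atpE, weigh most in these sums. The members' median log2 signal per array was 8.16 to 8.35, 8.57 to 8.64 and 8.68 to 8.99 at those stages in the wild type. In ms35 the medians were 8.20 to 8.27, 8.37 to 8.60 and 8.30 to 8.88. The tapetum, green tissue and late pollen markers given above moved over the same arrays, and their part in the changes was not tested.

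In the wild type the genes called higher came from several complexes. They were 3 of 5 photosystem I genes, 3 of 15 photosystem II genes, 2 of 6 cytochrome b6f genes, 3 of 9 NDH genes and ccsA. None of the 6 ATP synthase genes was called, nor was rbcL. Over all tested probe sets 17.0% were called higher, and differences between complexes were not tested. psaA gave 138 and 150 at PMI, 219 and 286 at bicellular, and 363 and 271 at PMII, a rise of 1.11 ± 0.30 from PMI to PMII (adjusted p = 0.0163). psaB gave 2118 and 2097, 2336 and 2373, and 2898 and 3775, a rise of 0.65 ± 0.21 (adjusted p = 0.0363). For both genes the PMII arrays exceeded all PMI arrays. psaC, for the iron-sulphur subunit that passes electrons on to ferredoxin, rose by 0.78 ± 0.25 (adjusted p = 0.0350).

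In photosystem II the genes of both inner antenna proteins rose in the wild type. psbB gave 107 and 124 at PMI and 172 and 342 at PMII (1.06 ± 0.31, adjusted p = 0.0246). psbC gave 155 and 207 at PMI and 283 and 456 at PMII (0.99 ± 0.31, adjusted p = 0.0306). In each case replicate 2 of PMII was the highest wild type array. psbK rose by 1.01 ± 0.22 (adjusted p = 0.00552), a call that ended without wild type PMII replicate 2 (adjusted p = 0.0542).

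petG, for a small cytochrome b6f subunit, gave the largest of the 12 called changes, from 34.5 and 26.9 at PMI through 49.9 and 52.0 at bicellular to 74.1 and 69.9 at PMII (1.18 ± 0.36, adjusted p = 0.0270). petA, for cytochrome f, to which the ccsA pathway attaches haem, rose from 1136 and 929 to 1494 and 2134 (0.80 ± 0.21, adjusted p = 0.0126). ndhI, for an iron-sulphur subunit of the NDH complex, rose from 1466 and 1327 to 2021 and 2682 (0.74 ± 0.20, adjusted p = 0.0164). Values did not overlap between PMI and PMII for these 3 genes.

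In ms35 the called genes were 1 of 5 photosystem I genes, 2 of 15 photosystem II genes, 2 of 9 NDH genes and ccsA. Over all tested probe sets 11.7% were called higher in ms35. ndhD rose by 0.80 ± 0.24 (adjusted p = 0.0319) and psaB, from 1500 and 1558 at PMI to 2375 and 2729 at PMII, by 0.74 ± 0.21 (adjusted p = 0.0274). psbF, for a cytochrome b559 subunit, went from 658 and 489 to 970 and 995 (0.79 ± 0.23, adjusted p = 0.0267). psbL, for a small photosystem II subunit, went from 293 and 288 to 386 and 583 (0.70 ± 0.21, adjusted p = 0.0359). ndhA, for an NDH membrane subunit, went from 255 and 276 to 362 and 541 (0.73 ± 0.23, adjusted p = 0.0411).

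The genes called in both lines were ccsA, ndhA, ndhD and psaB, named here after their values were seen. ccsA rose by 0.56 ± 0.18 in the wild type (adjusted p = 0.0346) and by 0.62 ± 0.18 in ms35 (adjusted p = 0.0285), at its lower signal. The wild type values were 0.73 ± 0.24 for ndhD (adjusted p = 0.0357) and 0.69 ± 0.23 for ndhA (adjusted p = 0.0407). All 9 tested NDH genes had positive values in both lines.

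These stage calls rested on few arrays. Every one of the 12 wild type and 6 ms35 calls ended without at least 1 array, and the count in the wild type fell to 5 without PMI replicate 1, to 1 without PMI replicate 2 and to 3 without PMII replicate 2. In ms35 it fell to 2 and 0 without PMI replicates 1 and 2, and to 3 and 0 without PMII replicates 1 and 2. Median centring of the arrays, which took the median change of all probe sets in the wild type from 0.19 to 0.01, left 4 called members in the wild type and 3 in ms35, with member medians of 0.23 and 0.35.

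**Figure D4:**
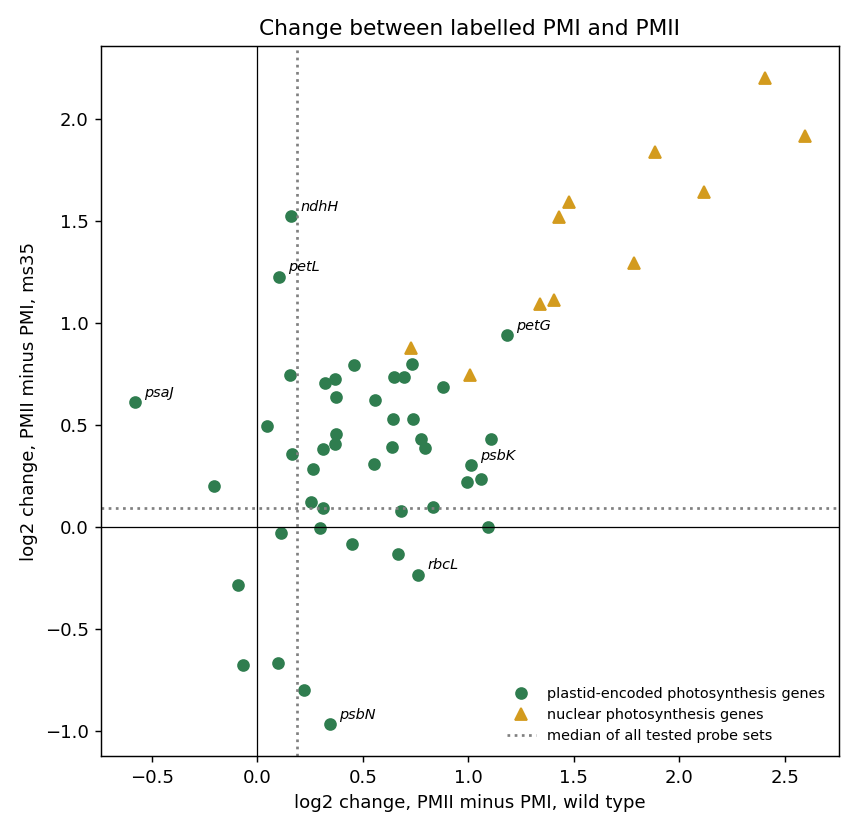
Each circle is a tested plastid photosynthesis gene and each triangle a nuclear photosynthesis gene, placed by its log2 change PMII minus PMI in wild type (x axis) and in ms35 (y axis), with dotted lines at the medians of all tested probe sets (0.19 and 0.09). Of the 46 circles, 42 lie above 0 in wild type and 35 in ms35, and the 11 triangles lie above 0 on both axes, with higher medians (1.48 and 1.52).

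Other well-known members gave no stage call. Between PMI and PMII atpB changed by 0.31 in the wild type and 0.09 in ms35 (adjusted p = 0.341 and 0.820). petB changed by 0.26 and 0.28 (adjusted p = 0.476 and 0.482), and psbD by −0.09 and −0.29 (adjusted p = 0.833 and 0.492). psbA gave 747 and 593 at PMI and 558 and 907 at PMII in the wild type, a value of 0.10, and 517 and 864 then 313 and 563 in ms35, a value of −0.67 (adjusted p = 0.869 and 0.200). The stages overlapped in both lines for psbA.

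Steps between adjacent stages gave no called member. From PMI to bicellular in the wild type 0 of 46 were called by limma (4 at an unadjusted p under 0.05), where 18.1% of all tested probe sets were called, and the median was 0.24 against 0.14. The largest values were 0.84 for ndhH (adjusted p = 0.420) and 0.79 ± 0.30 for psaA (adjusted p = 0.0918). From bicellular to PMII 0 were called (3 at an unadjusted p under 0.05) against 1.55%, with the largest values −0.68 for ndhH (adjusted p = 0.692) and −0.64 for psbM, for a small photosystem II subunit (adjusted p = 0.413).

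In ms35 the same steps gave 0 calls (7 at an unadjusted p under 0.05) against 2.64% of all, and 0 calls (2 at an unadjusted p under 0.05) against 0.413%. The largest values from PMI to bicellular were 1.82 ± 0.66 for ndhH (adjusted p = 0.162), whose signals were 4.32 and 6.42 at PMI and 41.6 and 14.0 at bicellular, and 1.61 ± 0.58 for petL, a small cytochrome b6f subunit (adjusted p = 0.164). From bicellular to PMII they were −1.03 ± 0.49 for psbN, an assembly factor of photosystem II (adjusted p = 0.326), and −1.01 for atpI, an ATP synthase membrane subunit (adjusted p = 0.443). ndhH and atpI had signals near or under the limit for testing.

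Nuclear genes of the same pathway had larger values, a difference between lists that carries no test. Plastid and nuclear RNA may also be labelled to different extents, which was not tested. The 11 nuclear photosynthesis genes found by symbol, which include the 3 green tissue markers, all rose from PMI to PMII in both lines. Over all tested probe sets 17.0% in the wild type and 11.7% in ms35 were called higher. The medians of the 11 were 1.48 in the wild type and 1.52 in ms35, against 0.41 and 0.38 for the plastid members. Other nuclear photosynthesis genes may lie among the 8730 probe sets without a named gene. The change in PRK, the Calvin cycle enzyme phosphoribulokinase, was 2.12 in the wild type and 1.64 in ms35, and in PSAE-1, a stromal photosystem I subunit, it was 1.88 and 1.84. Of the other plastid genes, 7 of 21 were called higher in each line (medians 0.60 and 0.59), and 20 of 21 had positive values in each. Of 20 mitochondrial probe sets, which stand for 13 genes with 7 probe sets for nad1 alone, none was called in the wild type and 1 fell in ms35. Their medians, taken over probe sets, were 0.27 and −0.21.

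A list for plastid RNA processing and complex assembly, taken by symbol, had 17 tested genes. It also caught genes outside that theme: the NDH subunit genes NdhL and NdhS and the mitochondrial factor genes OTP43 and OTP87. Between PMI and PMII, 4 of the 17 (23.5%) were called higher in the wild type and 3 (17.6%) in ms35, with positive values in 16 and 14. Over all tested probe sets 17.0% and 11.7% were called higher. LPA2 and PAM68, both photosystem II assembly factors, rose in both lines. None of the 17 was called between ms35 and wild type averaged over stages, nor were any of the 11 nuclear photosynthesis genes, of the 13 late pollen markers or of the 4 tested tapetum markers. The epidermis list found 1 probe set, by the symbol FDH, a symbol that more than 1 Arabidopsis gene carries. It is therefore not read as an epidermis marker. Its signal was lower in ms35 averaged over stages (−0.50 ± 0.12, adjusted p = 0.0254), as those of ccsA, psbK and psbI were. Unlike those genes, FDH overlapped between the lines at PMII, with 557 to 646 in the wild type and 471 to 644 in ms35. Its part in the differences of ccsA, psbK and psbI was not tested.

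**Figure D5:**
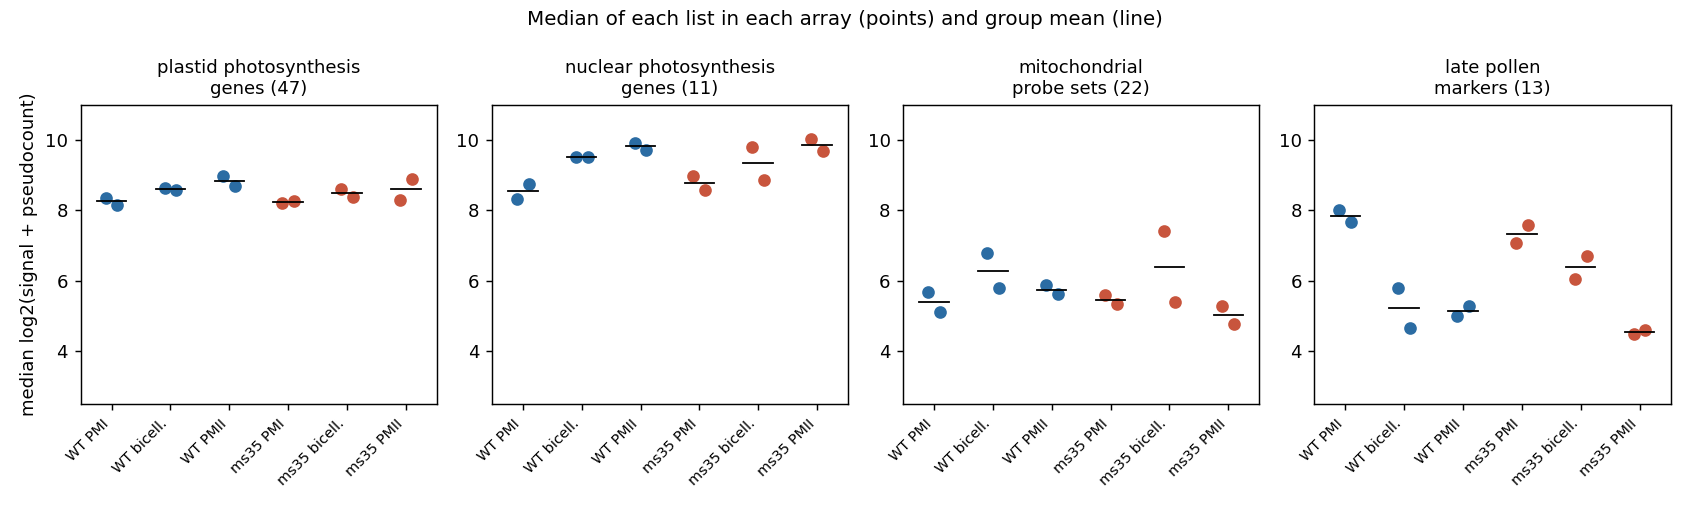
Points give the median log2(signal + pseudocount) of each list in each array and lines the group means, for plastid photosynthesis genes and 3 other lists. The plastid list moves within 8.16 to 8.99, while the nuclear photosynthesis list moves from 8.33 at its lowest to 10.02 at its highest.

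Most members were put into 11 set runs of genes that are close in gene order. Some members left out of the runs also have member neighbours: ccsA lies beside ndhD, petN beside psbM, and psbN between psbT and psbH. Pairs not in the same run therefore include some neighbours. Over the 12 arrays, the 61 pairs of members in the same run, adjacent or not, had a median Pearson r of 0.50 (−0.41 to 0.90), with 91.8% of them positive. The other 974 pairs had a median of 0.30, with 78.6% positive. These values describe arrays that share scaling and stage, and carry no test. From PMI to PMII, where 42 of 46 members were positive in the wild type and 35 in ms35, all genes of a run were positive in 8 of 11 runs in the wild type and in 6 of 11 in ms35, and the remaining runs had mixed signs. In ms35, 2 of 4 genes were positive both in the run of atpI, atpH, atpF and atpA and in that of psaI, ycf4, cemA and petA. In the run from ndhD to ndhH, which also holds psaC, all 7 genes had positive PMI to PMII values in both lines. Of these 7, 4 were called in the wild type and 2 in ms35, where 17.0% and 11.7% of all tested probe sets were called higher. In the psbJ, psbL, psbF and psbE run, 4 of 4 were positive in both lines, between 0.32 and 0.64 in the wild type and between 0.46 and 0.79 in ms35. The pair psbK and psbI was positive in both lines, and lower in ms35 than in the wild type at every stage.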

How the data were processed

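The deposited intensity values are MAS5 signals made by the authors with GCOS, per the submitters' processing notes. No version is named there. The arrays were labelled by a one-cycle protocol from total RNA. How fully this labelling takes up plastid RNA beside nuclear RNA was not tested, so signals of plastid genes may not follow transcript level. Of 22810 probe sets, 64 controls were left out. Of the remaining 22746, 16464 with a signal above 25.5 (the 40th percentile) in at least 2 arrays were tested on log2(signal + 2.23), the 10th percentile as pseudocount, so a fold understates the change of low genes. limma 3.58.1 in R 4.3.3 fitted the 6 group means with an intensity trend (6 residual degrees of freedom), and p-values were adjusted over all tested probe sets. Genes came from the platform annotation (13513 probe sets with 1 gene, 503 with several, 8730 with none) and a gene table (TAIR10.1), from which only names and gene order were taken. Mitochondrial genes were matched by symbol.

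Text named, per contrast, up to 8 called members in each direction by size, or the 2 largest values where none was called, besides psaA, psaB, psbA, psbD, rbcL, atpB, petB and ndhF. The members and lists were chosen with earlier results of these data known. Lists for plastid transcription genes and vasculature found no named probe set. Neither of the 2 genes of other floral organs is described further. No sequence is shown.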

Additional observations from a re-analysis of the deposited data

Results flagged for a closer look

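In 6 members, differences without overlap between the replicates ran in opposite directions in the groups compared. The test of that difference was the limma F test for genotype by stage, and no member passed it. For ms35 minus wild type, the log2 values at bicellular and PMII were 0.573 and −0.331 for psaC (interaction adjusted p = 0.641), 0.415 and −0.967 for atpI (0.775), 0.222 and −0.382 for petA (0.709), and −0.224 and 0.152 for psbJ (0.827). For PMII minus bicellular, the values in wild type and ms35 were 0.588 and −0.316 for psaC, 0.371 and −1.01 for atpI, 0.607 and −0.339 for rbcL (interaction adjusted p = 0.640), and 0.282 and −0.218 for cemA (0.658). For PMII minus PMI, rbcL gave 0.763 in wild type and −0.236 in ms35.

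Such opposite differences occurred in 4 of 46 members between stages of the genotype comparison, where 13.5% of all tested probe sets had them, and in 4 of 46 members between the lines, where 10.5% had them. In rbcL the wild type PMII signals were 128 in replicate 1 and 238 in replicate 2, where the GAPDH ratio was 2.86. Groups of 2 arrays were too small to be examined for outlying arrays.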

How the results depend on the processing

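No called gene changed direction under any alternative. Of the alternatives, 217 counts stayed within 1.5 times and 26 moved, 197 medians stayed within the replicate spread and 3 moved, and of the values of single called or near-called genes 430 kept their side of the threshold, 135 lost it and 6 passed it. Between ms35 and wild type at PMII, 2 called members became 1 without the intensity trend, with only the arrays compared, and without the 2 arrays of highest GAPDH ratio (1 to 2 leaving out single arrays). From PMI to bicellular in the wild type, 0 became 1 under quantile normalization and 2 with only the arrays compared (0 to 1 leaving out single arrays). In ms35 that step gave 0 to 1 leaving out single arrays. From PMI to PMII in the wild type, 12 became 4 under median centring, 5 without the trend, 4 without the 2 arrays of highest GAPDH ratio and 4 with a 2-fold minimum, which was added after seeing the data (1 to 15 leaving out single arrays). In ms35, 6 became 3 under median centring, 0 without the trend, 1 with only the arrays compared and 0 with the 2-fold minimum (0 to 7 leaving out single arrays). The median at PMII between lines was −0.39 to 0.05 (0.053 without ms35 PMII replicate 1, −0.18 with all arrays), and from bicellular to PMII in ms35 −0.13 to 0.35 (0.09 with all arrays), leaving out single arrays. psbI averaged over stages was not called in 15 of 22 settings (adjusted p up to 0.158), and psbK at PMII was not called in 6. Fits with only the arrays compared and those without an array have fewer residual degrees of freedom. The cause of the other shifts was not tested. With the replicate number as a block, called members numbered 4 between lines averaged over stages, 13 from PMI to PMII in the wild type and 6 in ms35, and the other counts did not move. Deviations of same-numbered arrays correlated at −0.126 to 0.182 over 15 pairs of groups, 4 of them above 0.1, and over the members alone at −0.585 to 0.511, 7 of them above 0.1. Since not every pair lay above 0.1, the numbers were not taken to pair the arrays. Signals near the limit for testing (atpI, ndhH, petN) bound what can be read for those genes.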
